A study of Homo sapiens with 2 samples.

Results

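SWI/SNF (also called BAF) complexes are chromatin remodellers: they use the energy of ATP to slide or eject nucleosomes and so open enhancers and promoters to transcription factors. Each complex carries 1 of 2 interchangeable ATPases, SMARCA4 (BRG1) or SMARCA2 (BRM), on a scaffold of core subunits, and ARID-domain or bromodomain subunits set the form of the complex. SMARCA4 is lost in a share of lung carcinomas, and many cells that lack it but keep SMARCA2 are known to depend on SMARCA2.

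The 10 genes described here were chosen by name from the 23686 gene symbols measured: the ATPases SMARCA4 and SMARCA2, the core subunits SMARCB1, SMARCC1, SMARCC2 and SMARCD1, and the ARID1A, ARID1B, ARID2 and PBRM1 subunits. They were followed in A427, an established human non-small cell lung carcinoma line known as SMARCA4-deficient. Floating cells are those that grow as spheres off the dish, and adherent cells are those of the same line attached to it. Both were grown without drug in the same serum-containing medium, and the labels give the genotype of both as WT while the study's title calls the line CTNNB1-mutated. Poly(A) RNA of each growth form was sequenced in 1 library, with 27148842 reads assigned to genes in the floating library and 26384670 in the adherent one. No growth form was repeated, so no test was made, no SD or p-value is given, and every 95% interval below is a counting interval that leaves out any spread between cultures. Each library is a bulk sample, so fewer cells expressing a gene and less RNA per cell cannot be told apart.

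Markers of carcinoma epithelium were present unevenly. EPCAM, an epithelial adhesion molecule, stood at 581.81 TPM (transcripts per 1000000, a level per transcript length) in floating cells and 615.34 TPM in adherent cells, and the keratin gene KRT8 was at 581.13 and 326.59 TPM and KRT18 at 612.52 and 342.47 TPM, while KRT7 had 3 and 4 reads and KRT19 had 22 and 8. Of 5 mesenchymal genes, VIM, an intermediate filament, was at 4850 TPM in floating and 5264 TPM in adherent cells, while CDH2, FN1, ZEB1 and ZEB2 were at most at 6.63 TPM in floating and 6.60 TPM in adherent cells. Of 4 lung markers, NAPSA had 21 reads in floating cells and 29 in adherent cells, and NKX2-1, SFTPB and SFTPC had at most 13 reads in either library. Of 3 markers described in SMARCA4-deficient thoracic tumours, SALL4 was at 19.75 and 21.15 TPM and SOX2 at 4.27 and 1.79 TPM in floating and adherent cells, and CD34 had 4 reads in each.

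Both ATPases were scarce, and every other one of the 10 subunits lay above the median level of the 13131 genes compared below. That median was 21.69 TPM in floating cells and 22.42 TPM in adherent cells. SMARCA4, the ATPase that the line is known to lack, was still detected, with 229 reads and 3.11 TPM in floating cells and 218 reads and 3.18 TPM in adherent cells. That placed it at percentile 29.6 of the genes detected in the floating library and at percentile 27.7 in the adherent one. SMARCA2 was lower again, with 72 reads and 0.97 TPM (interval 0.759 to 1.22) in floating cells and 29 reads and 0.42 TPM (interval 0.281 to 0.603) in adherent cells, at percentiles 21.3 and 15.3. These percentiles depend on the genes ranked: among genes of at least 1 CPM (reads per 1000000), SMARCA4 was at percentile 11.3 in floating and 10.8 in adherent cells and SMARCA2 at 2.76 and 0.784, and among all genes of the table SMARCA4 was at 50.6 and 50.3 and SMARCA2 at 44.8 and 41.8. The protein was not measured, and the tables hold 1 value per gene, so they do not show whether the SMARCA4 transcript carries a mutation.

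The remaining 8 subunits spanned 26.74 to 108.87 TPM in floating cells and 36.31 to 131.93 TPM in adherent cells. Even the lowest of them, ARID2, was 8.60 times the level of SMARCA4 in floating cells and 11.4 times in adherent cells. Among genes of at least 1 CPM, ARID2 was at percentile 55.9 in floating cells and 63.9 in adherent cells. Transcripts of SMARCC1 and SMARCC2, which form the scaffold, were far in excess of those of the ATPases. SMARCC1 and SMARCC2 together reached 216.71 TPM in floating cells against 4.08 TPM for both ATPases, a ratio of 53.1. In adherent cells the same sums were 250.93 and 3.60 TPM, a ratio of 69.7. These ratios compare transcripts per length within a library. They do not count proteins or allow for how many copies of a subunit a complex holds.

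**Figure D1:**
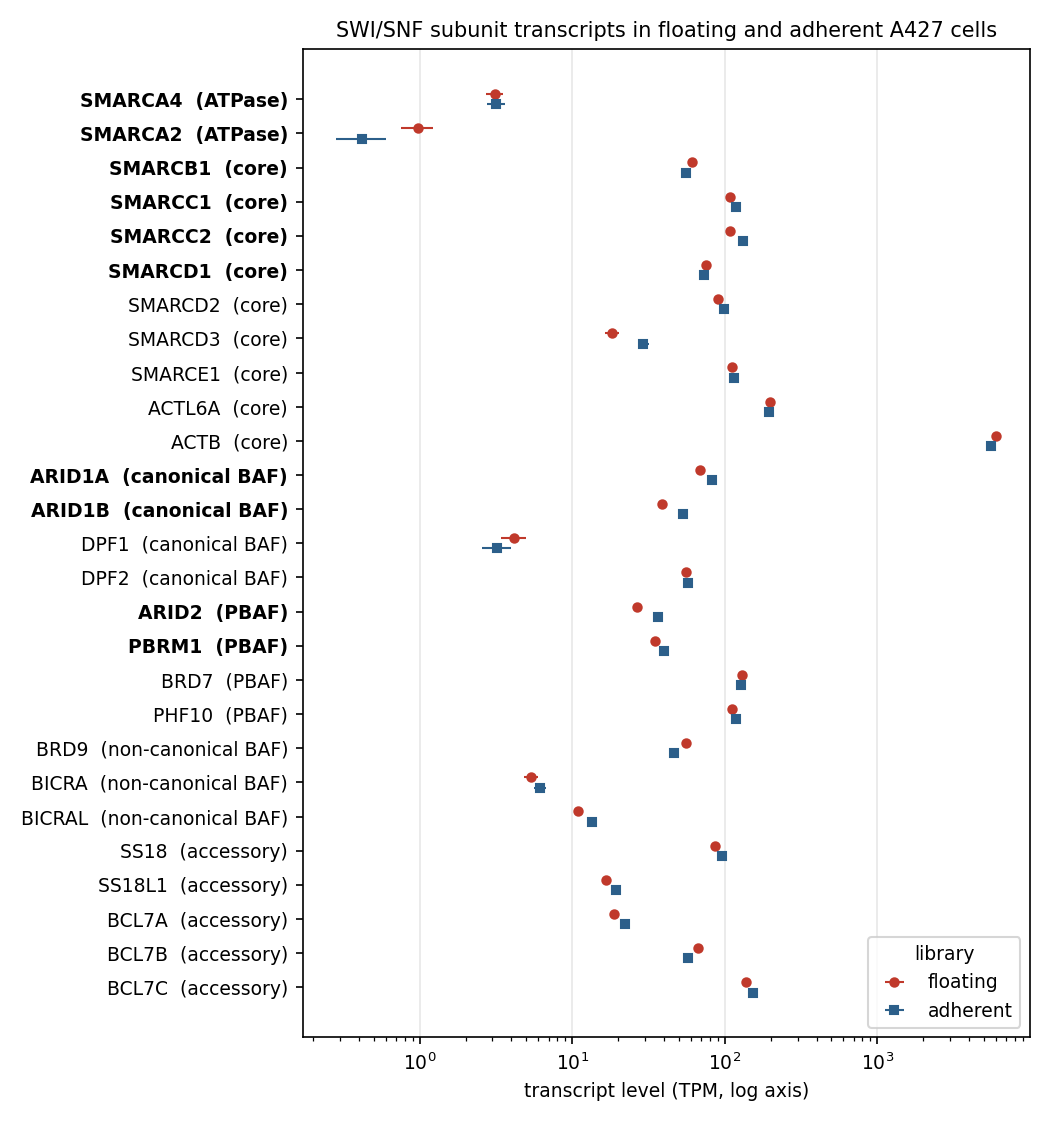
Transcript level of the 27 SWI/SNF subunit genes that reached the expression minimum, in TPM on a log axis, in the floating (circles) and the adherent (squares) library, with exact Poisson 95% intervals of the read count; the 10 genes of the report are in bold. SMARCA4 and SMARCA2 lie at 3.18 TPM or below in both libraries, while the other 8 bold genes lie at 26.74 TPM or above.

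Other ATPases of the SNF2 family, to which SMARCA4 and SMARCA2 belong, were set beside the SWI/SNF ATPases in the same libraries. Of 18 that were listed (ISWI, CHD, INO80 and related), all 18 lay above SMARCA4 in both libraries. So did most genes of at least 1 CPM, among which SMARCA4 was at percentile 11.3 in floating and 10.8 in adherent cells. The 18 ATPases spanned 13.31 to 176.55 TPM in floating cells and 14.77 to 177.91 TPM in adherent cells. The lowest of the 18 was CHD5 in floating cells, at 4.28 times the level of SMARCA4, and CHD5 and INO80 shared the lowest value in adherent cells. CHD4, the motor of the NuRD repressor complex, was the highest of the 18 in both libraries.

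**Figure D2:**
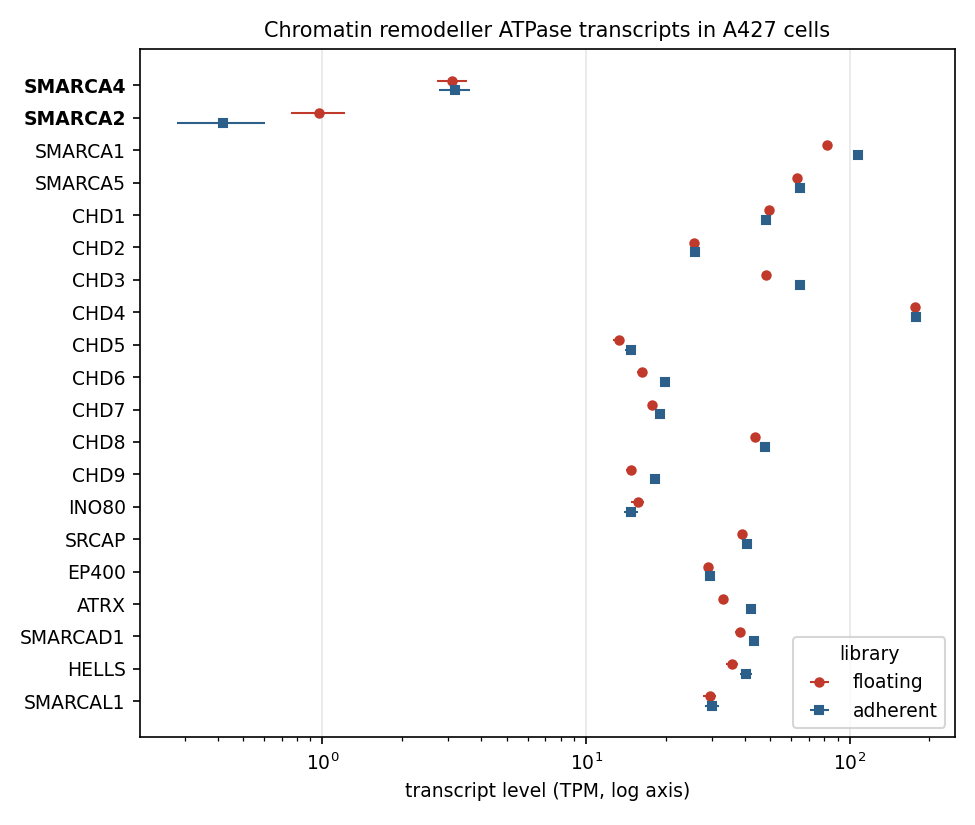
Transcript level in TPM (log axis) of SMARCA4, SMARCA2 and 18 other SNF2-family ATPases in the floating (circles) and the adherent (squares) library, with exact Poisson 95% intervals. Each of the 18 is at 13.31 TPM or above, and the SWI/SNF ATPases are at 3.18 TPM or below.

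The promoters of the ATPases are printed to show the start regions of the 2 genes that stood apart in level. The sequences run from 250 bases before to 50 bases after the most upstream start given by RefSeq (build GRCh38.p14), on the + strand at chr19:10960780-10961079 for SMARCA4 and at chr9:2015097-2015396 for SMARCA2, with CG dinucleotides in capitals.
SMARCA4: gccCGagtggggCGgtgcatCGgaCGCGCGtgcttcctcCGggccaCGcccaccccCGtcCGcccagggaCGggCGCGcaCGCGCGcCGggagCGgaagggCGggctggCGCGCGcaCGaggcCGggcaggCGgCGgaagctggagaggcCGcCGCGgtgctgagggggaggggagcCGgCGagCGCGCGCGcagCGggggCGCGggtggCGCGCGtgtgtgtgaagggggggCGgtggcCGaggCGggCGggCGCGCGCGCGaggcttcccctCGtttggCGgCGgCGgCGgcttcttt
SMARCA2: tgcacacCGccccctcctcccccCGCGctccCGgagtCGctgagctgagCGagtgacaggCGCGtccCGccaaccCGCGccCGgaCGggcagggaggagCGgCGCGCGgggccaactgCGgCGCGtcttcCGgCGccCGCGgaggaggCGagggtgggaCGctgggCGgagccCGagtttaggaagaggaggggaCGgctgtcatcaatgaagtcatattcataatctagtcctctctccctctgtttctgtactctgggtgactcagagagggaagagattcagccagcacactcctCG
The SMARCA4 window held 55 CG dinucleotides, as many as or more than all but 0.373% of the 35116 promoter windows of that length, whose median was 14. The SMARCA2 window held 30, a number reached by 22.4% of the windows. Among the other subunit genes with a window in the table, the most upstream one held 33 CG for ARID1A, 5 for ARID1B, 31 for PBRM1, 25 for SMARCB1 and 35 for SMARCD1, and a second start held 39 for ARID1B and 46 for PBRM1. The further starts listed for the ATPases held 5 (SMARCA4) and 3 to 9 (SMARCA2). CG reads the same on either strand. Methylation was not measured, the builds differ from the hg19 used for the reads, and which start the cells used is not shown by values per gene.

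SMARCA2 and SMARCA4 are close relatives, so reads of one could be counted for the other. The longest run of identical bases between their transcripts with the longest coding sequence (GENCODE v29) was 26 bases, within the coding sequence of both, and is printed to show how short it is.
SMARCA4 and SMARCA2 shared run: gagaagctggagaagcagcagaagat
No stretch of 50 bases was common to any of their annotated transcripts, and none was for ARID1A with ARID1B, SMARCC1 with SMARCC2, or SMARCD1 with SMARCD2 or SMARCD3. The transcript with the longest coding sequence of each of the 10 genes was also searched against transcripts of all other genes. For SMARCA2, 9 of its 5818 stretches of 50 bases occurred in MAML2. For ARID1B, 7 of 10764 occurred in DLX6, and that transcript of each of the other subunits shared none. Other annotated forms and the opposite strand were left out of this search. The deposited estimates of all 10 genes were whole numbers in both libraries. Most genes had whole numbers: over all gene symbols, with those of 0 reads, 6.55% of estimates in the floating and 6.38% in the adherent library had decimals. Neither the read length nor strand use is given in the sources used here, and 7 of the 10 genes have exons overlapped by another gene in GENCODE v29. For SMARCC2 that gene is MYL6, on the opposite strand, at 2129 TPM in floating and 2060 TPM in adherent cells, so the SMARCC2 count is uncertain to that extent. For SMARCA2 it is AL359076.1, also on the opposite strand, whose level was not read. The low SMARCA2 counts are therefore uncertain to an unknown extent. SMARCA2 also has short annotated forms, but its effective length (reads per TPM) was 1.01 times that of SMARCA4 in both libraries, so the estimates were assigned to forms of about the length of SMARCA4.

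SMARCA2 was the only one of the 10 genes that differed by 2-fold between growth forms. It was 2.38-fold higher in floating cells (interval 1.54 to 3.83), on 72 reads against 29. A gene was called where the ratio reached 2-fold and its counting interval left out 1-fold. By this rule 1 of the 10 was called, against 2.03% of the 13131 genes that reached 1 CPM in either library; higher calls were 1.28% and lower ones 0.754%. Calls are more frequent at low depth: among the 835 genes whose summed reads were within 1.5 times the 101 reads of SMARCA2, 4.67% were called higher and 2.51% lower. The interval's lower bound lies under 2-fold, and on TPM the log2 ratio was 1.04 (with 0.1 TPM added) against 1.25 on reads.

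SMARCA4 had a ratio of 1.02 (interval 0.840 to 1.23), so no difference between growth forms was detectable at this depth. The balance between the ATPases differed: SMARCA2 made up 23.9% of the 301 ATPase reads in floating cells (exact binomial interval 19.2% to 29.1%) and 11.7% of the 247 reads in adherent cells (8.01% to 16.4%). The ratio of SMARCA2 to SMARCA4 was 2.36 times as high in floating cells (conditional exact interval 1.45 to 3.92), a value that does not depend on how the libraries are scaled. SMARCA4 held the larger part of the ATPase reads in both libraries. Summed over both ATPases, the log2 ratio was 0.24 (interval -0.01 to 0.48), which includes no difference.

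**Figure D3:**
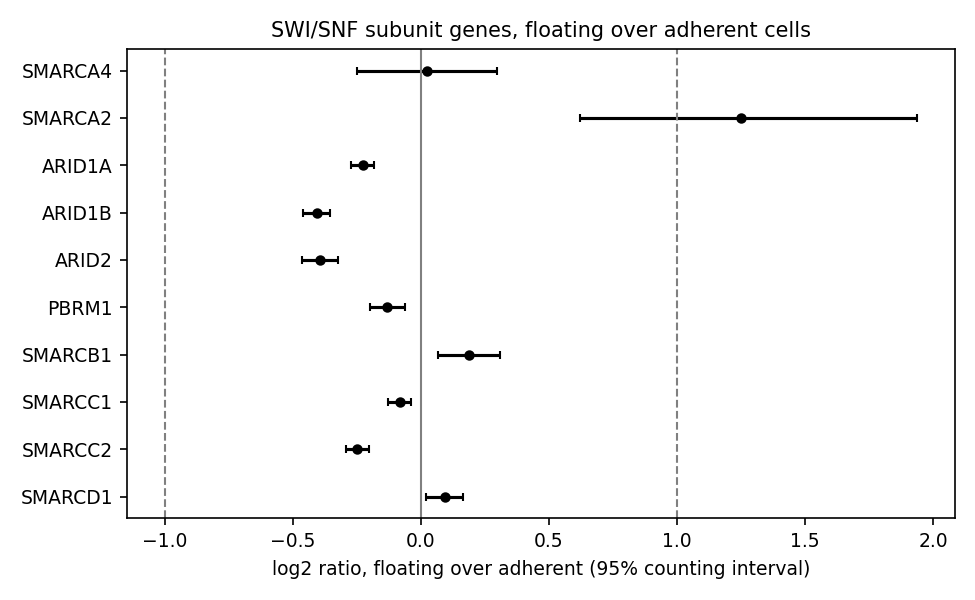
Log2 ratio of floating over adherent cells for the 10 SWI/SNF subunit genes (points) with exact 95% counting intervals (bars); the solid line marks no difference and the dashed lines 2-fold. SMARCA2 lies at 1.25, SMARCA4 at 0.02, the ARID genes, PBRM1, SMARCC1 and SMARCC2 below 0, and SMARCB1 and SMARCD1 above 0.

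The DNA-binding ARID subunits were lower in floating cells. ARID1B, the canonical BAF subunit that is the paralog of ARID1A, was at 39.01 TPM in floating cells and 53.44 TPM in adherent cells, 1.33-fold lower (interval 1.28 to 1.38). ARID2, which defines the PBAF form of the complex, was at 26.74 and 36.31 TPM in floating and adherent cells, 1.32-fold lower (1.25 to 1.38). ARID1A, the subunit most often mutated in cancers, was at 68.39 TPM in floating cells and 82.23 TPM in adherent cells, 1.17-fold lower (1.14 to 1.21). All 3 were lower in the floating library, and each by less than 1.5-fold. Summed over the 3 genes, floating cells had 15497 reads and adherent cells 18704, a log2 ratio of -0.32 (-0.35 to -0.29).

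The pair ARID1A and ARID1B also shifted in proportion. ARID1B supplied 39.3% of the pair's reads in floating cells and 42.3% in adherent cells, and the ratio of ARID1B to ARID1A was lower in floating cells by a log2 value of -0.18 (interval -0.25 to -0.11). Per length, ARID1A was the more abundant in both libraries, with 63.7% of the pair's TPM in floating cells and 60.6% in adherent cells. Such a shift was not particular to this pair. The log2 value was -0.17 for SMARCC2 to SMARCC1 (-0.23 to -0.10) and -0.17 for SMARCD2 to SMARCD1 (-0.27 to -0.07). PBRM1, the polybromo subunit that accompanies ARID2 in PBAF, was at 35.16 TPM in floating and 39.74 TPM in adherent cells, 1.10-fold lower (1.05 to 1.15), a smaller difference than that of ARID2.

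The core subunits differed in both directions. SMARCB1 (SNF5), which anchors the complex on the nucleosome's acidic patch, was at 61.19 TPM in floating and 55.34 TPM in adherent cells, 1.14-fold higher (interval 1.05 to 1.24). SMARCD1 (BAF60A), a core subunit with the paralogs SMARCD2 and SMARCD3, was at 74.98 and 72.59 TPM in floating and adherent cells, 1.07-fold higher (1.01 to 1.12). The scaffold subunits were lower: SMARCC2 (BAF170), at 107.84 TPM in floating cells and 131.93 TPM in adherent cells, was 1.19-fold lower (1.15 to 1.22), and SMARCC1 (BAF155), at 108.87 and 119.00 TPM, was 1.06-fold lower (1.03 to 1.09). SMARCC2 exceeded SMARCC1 in adherent cells, while in floating cells their counting intervals overlapped and no order was established.

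Counted together, 3 of the 10 genes had counting intervals above 0 (SMARCA2, SMARCB1, SMARCD1) and 6 had intervals below 0, against 25.5% and 25.6% of all tested genes. An interval narrows as reads increase, and these shares over all tested genes were not matched for read depth. The 8 genes other than the ATPases had at least 1032 reads in each library, while a tested gene needed only 1 CPM in 1 library. The median log2 ratio of the 10 was -0.11, beside -0.005 over all tested genes. In the order of levels, neighbouring genes had overlapping intervals at 1 place in each library: SMARCC1 with SMARCC2 in floating cells, and SMARCB1 with ARID1B in adherent cells. All other neighbours were separated by more than counting error. SMARCD1 stood above ARID1A in floating cells and below it in adherent cells.

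Long genes were on the whole lower in the floating library, and 6 of the 10 genes, all of them long, had intervals below 0. SMARCA4 and SMARCA2, of about the length of SMARCC1 and SMARCC2, did not. On 229 reads in floating and 218 in adherent cells, SMARCA4 had a log2 interval of -0.252 to 0.296. That interval holds the ratios of SMARCC1 (-0.083) and SMARCC2 (-0.249), so a difference of their size could not be seen in SMARCA4. Over all tested genes, the decile of genes with the longest transcripts had a median log2 ratio of -0.06, with 40.8% of counting intervals below 0 and 21.1% above, and ARID1A, ARID1B, ARID2 and PBRM1 belong to that decile. In the decile of the shortest the median was 0.11. SMARCB1 was the shortest of the 10 genes, at 0.535 times the median length, in a decile with a median of 0.05. Pearson's r between log2 ratio and log2 length was -0.34 over the 10 genes, -0.90 over the 8 without the ATPases, -0.46 over all 25 tested subunits without the ATPases and -0.13 over the 13126 tested genes with a length, as a description across genes that share both libraries. With the trend over length removed, the log2 ratio was -0.35 for ARID1B, -0.34 for ARID2, -0.17 for ARID1A, -0.08 for PBRM1 and -0.21 for SMARCC2, each with an interval below 0. SMARCC1 came to -0.04 (interval -0.09 to 0.001), which includes no difference. SMARCB1 (0.14), SMARCD1 (0.10) and SMARCA2 (1.29) kept intervals above 0.

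**Figure D4:**
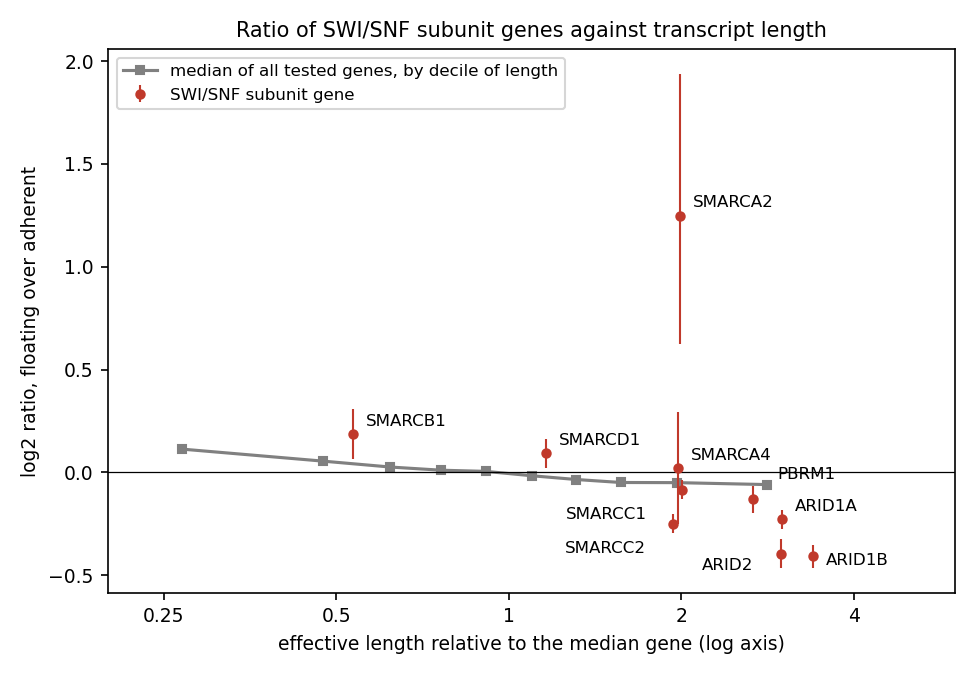
Log2 ratio of floating over adherent cells for the 10 SWI/SNF subunit genes (circles, with 95% counting intervals) against their effective length relative to the median gene (log axis); squares joined by a line are the medians of all tested genes in deciles of length. The line runs between 0.11 and -0.06, and the points of PBRM1, SMARCC1 and SMARCC2 lie below it, with the interval of SMARCC1 crossing it. The points of ARID1A, ARID1B and ARID2 lie to the right of the end of the line, at lower ratios than its last square.

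The rest of the complex gave the setting for these genes. Of 29 subunits listed in all, 27 reached 1 CPM in at least one library, 8 of them with intervals above 0, 12 below 0 and 7 including 0. The shares over all tested genes were 25.5% above and 25.6% below, not matched for read depth. The median log2 ratio of the 27 was -0.08. SMARCA2 alone was called, against 2.03% of all tested genes. ACTL6B, the neuronal actin-like subunit, had 0 reads in each library, a count that allows a level of up to 0.111 CPM (floating) and 0.114 CPM (adherent), and DPF3, a subunit of muscle and neural complexes, had 1 read in each. Their paralogs ACTL6A (198.10 and 195.29 TPM in floating and adherent cells) and DPF2 (55.41 and 57.26 TPM) were abundant. DPF1, another paralog of DPF2, was detected at a low level, with 116 reads (4.13 TPM) in floating cells and 84 reads (3.20 TPM) in adherent cells.

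Among paralogs of SMARCD1, SMARCD3 differed the most. It was at 18.17 TPM in floating cells and 29.28 TPM in adherent cells, 1.57-fold lower (log2 interval -0.84 to -0.45), while SMARCD2 was at 90.53 and 98.42 TPM, with a log2 ratio of -0.08 (-0.15 to -0.004). The ratio of SMARCD3 to SMARCD1 was lower in floating cells by a log2 value of -0.74 (-0.95 to -0.53). BRD9, the bromodomain subunit of the non-canonical form, was 1.24-fold higher, at 55.69 TPM in floating and 46.24 TPM in adherent cells, whereas BICRAL, a subunit of the same form, was at 10.99 and 13.55 TPM, 1.20-fold lower. In the PBAF form, BRD7 had a log2 ratio of 0.08 (0.01 to 0.15) and PHF10 one of -0.03 (-0.11 to 0.06), so the lower values of ARID2 and PBRM1 were not shared by all of its subunits. BCL7B was 1.21-fold higher, and BCL7A, SS18 and SS18L1 had log2 ratios of -0.18 to -0.10 with intervals below 0.

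The other listed SNF2-family ATPases had log2 ratios between -0.38 and 0.13. None of 18 was called, against 2.03% of all tested genes. Intervals lay above 0 for 3 and below 0 for 9, against 25.5% and 25.6% of all tested genes, not matched for read depth. The median log2 ratio of the 18 was -0.06. By distance of the interval from 0, the first 4 were CHD3 (log2 ratio -0.38), SMARCA1 (-0.33), ATRX (-0.31) and CHD9 (-0.26), all lower in floating cells.

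Genes that have been reported elsewhere to need SMARCA4 or SMARCA2 were also read. CD44, an adhesion receptor, had 23 reads in floating cells and 11 in adherent cells, at 0.35 and 0.17 TPM, and its interval included no difference (log2 -0.08 to 2.20). CDH1, the epithelial cadherin, was at 13.94 TPM in floating cells and 18.85 TPM in adherent cells, 1.31-fold lower (log2 interval -0.52 to -0.26). CCND1, which encodes cyclin D1, was among the abundant genes at 582.96 and 746.49 TPM in floating and adherent cells, 1.24-fold lower. Of 3 genes reported as regulators of SMARCA2 silencing, the deacetylase HDAC9 was at 103.72 TPM in floating and 141.42 TPM in adherent cells, 1.32-fold lower, MEF2D was 1.13-fold lower, and GATA3 had an interval that included 0. Whether any of these moved with SMARCA2 beyond these 2 libraries was not tested.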

How the data were processed

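Poly(A) RNA of A427 was measured in 1 floating and 1 adherent library. The submitters' processing notes name FastQC 0.11.1, STAR 2.5.3a and RSEM 1.3.3 and the build hg19. Annotation, settings and strand use are not given in the sources at hand. The authors deposited estimated counts per gene, not normalized, and TPM, which they scaled to 1000000 per library. Columns were matched to samples by title.

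Estimated counts were rounded and scaled with edgeR's trimmed mean of M values (edgeR 4.0.16, R 4.3.3). Log2 ratios used (count + 0.5) per effective library size, and 95% intervals are exact Clopper-Pearson intervals conditional on summed reads. Reads without molecular identifiers are not independent molecules, so intervals and the limit of 3 reads for a count of 0 cover counting error only. The comparison took genes reaching 1 CPM in either library, 13131 in all; all 10 subunit genes passed. The calculation was tested on simulated counts. With 1 library per group, no model test was run. Alternative settings were scaling by library totals, by the upper quartile or by DESeq2 1.42.0 size factors, TPM + 0.1, a prior count of 5, other filters and thresholds and, added after the data were seen, removal of a lowess trend (span 0.3, statsmodels 0.14.6) over effective length. Gene names BICRA and BICRAL were matched through the older symbols GLTSCR1 and GLTSCR1L. Named were all 10 genes, listed subunits, all 6 reported dependent or regulator genes, and in further lists 2-fold genes and up to 4 with the interval farthest from 0. CHD4, CHD5, INO80 and MYL6 were named after their levels were seen. The genes and lists were chosen with earlier results of these data known. RefSeq promoters were found for 7 of the 10 genes. Python 3.11.15, numpy 2.4.6, scipy 1.17.1 and pandas 2.3.3 were used.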

Additional observations from a re-analysis of the deposited data

How the results depend on the processing

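The 10 SWI/SNF subunit genes gave 1 higher and 0 lower calls under every scaling and prior count tried, on TPM, with the length trend removed, at 1.5-fold and without the counting interval. Directions held for 9 of them; SMARCA4, whose interval includes 0, ranged from -0.03 (TPM) to 0.06 (length trend removed). The log2 ratio of SMARCA2 ranged from 1.04 to 1.29, and a minimum of 5 CPM removes SMARCA2, leaving 0 higher calls among all subunits. At 1.5-fold, 1 subunit (SMARCD3) was lower, against 0 at 2-fold. Over all genes, the 168 higher and 99 lower calls became 426 and 381 at 1.5-fold, 286 and 164 with no filter, and 64 and 41 with at least 5 CPM. CHD4 changed sign on TPM (-0.011, against 0.03 on reads). TPM percentiles of the 10 genes moved beyond their counting intervals with the set of genes ranked, those of SMARCA4 and SMARCA2 by over 1.5 times. Ratios between paralogs did not move beyond their intervals on TPM. Depth limits SMARCA2, CD44 and the SMARCA4 ratio. No paired analysis was possible because each growth form has 1 library.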

Other observations

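Polycomb repressive complex 2, which places the repressive H3K27 methyl mark and is known to oppose SWI/SNF, was read from a list of 10 genes, all tested. None of these was called (2.03% over all genes tested). Intervals were above 0 in 1 gene and below 0 in 7 genes (25.5% and 25.6% over all genes tested, not matched for read depth). The median log2 ratio was -0.10, beside -0.005 over all tested genes. EZH1, the alternative methyltransferase, was at 27.86 TPM in floating cells and 37.17 TPM in adherent cells, a log2 ratio of -0.37 (interval -0.46 to -0.28). RBBP4, a histone-binding subunit shared with other complexes, had a log2 ratio of -0.25 and PHF1 one of -0.30, while EED, the subunit that reads the mark, was higher at 0.24 (0.10 to 0.38).

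Among leukocyte genes, PTPRC had 121 reads in floating cells and 159 in adherent cells, while CD3E had 0 reads in both libraries and CD14 at most 2. Of 3 endothelial genes, VWF had 44 reads in floating and 14 in adherent cells, and CDH5 had 0 in both. Among 5 fibroblast genes, COL1A1 was at 7.98 TPM in floating and 13.88 TPM in adherent cells, while COL1A2 had 2 reads in each.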
